A study of Mus musculus with 13 samples.

Results

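The transcripts described here are those of 37 genes that carry glucose and lactate across the cell membrane, break glucose down through glycolysis, store it as glycogen, divert it into the pentose phosphate pathway and admit pyruvate to the mitochondrion. They were taken as a named list, matched from Ensembl identifiers to mouse symbols, out of 42416 identifiers in the deposited count tables. Of the 37 genes, 36 passed a filter of more than 1 CPM (the counts-per-million scale, relative to the total of each library) in at least 5 libraries, as did 13360 identifiers in all. Aldoc, the aldolase typical of brain, did not pass, with 0.422 to 0.84 CPM in the WT libraries and 0.557 to 1.62 CPM in the iFAXLKO libraries.

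The libraries came from interscapular brown adipose tissue (iBAT) of 13 mice. Both groups carried loxP-flanked Axl alleles, were fed a high-fat diet (HFD), were kept at room temperature, and were dosed with tamoxifen at intervals of 3 weeks. The 8 iFAXLKO mice also carried Cre, per the study's methods a tamoxifen-inducible form driven by the adiponectin promoter and therefore active in adipocytes, while the 5 WT mice lacked it. The comparison asks whether deletion of the receptor tyrosine kinase AXL in adipocytes goes with another level of these transcripts in whole tissue, which also holds vessels, stroma, immune cells and, at dissection, adjoining muscle. The labels give no sex or age, while the study's methods and reporting notes describe its tissue-specific knockouts as female and as young adults at the first dose. The p-values of the group comparison set the difference between iFAXLKO and WT against the spread between libraries within a group.

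Brown adipocytes take up large amounts of glucose when they are stimulated by insulin or by noradrenaline, through the transporters GLUT4, encoded by Slc2a4 and best known from the response to insulin, and GLUT1, encoded by Slc2a1 and tied to the adrenergic response. Hexokinase traps the sugar, phosphofructokinase commits it to glycolysis, and the pyruvate formed either becomes lactate or enters the mitochondrion, where the pyruvate dehydrogenase complex turns it into acetyl-CoA under the brake of the pyruvate dehydrogenase kinases. Skeletal muscle runs the same pathway partly with its own isozymes, so that muscle carried over at dissection would add to some of these transcripts.

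The libraries held 22437277 to 32595083 counts each, of which 18.3 to 21.3% were mitochondrially encoded. Axl itself stood no lower in libraries labelled iFAXLKO (33.1 ± 6.16 CPM, SD, n = 8) than in WT (27.8 ± 3.82 CPM, SD, n = 5), with a log2 fold change of 0.25 (SE 0.13, edgeR adjusted p 0.699). The targeted gene thus does not show the deletion in whole tissue, and each direction given is between libraries so labelled. Brown adipocyte markers were abundant in both groups, at 7433 to 11412 summed CPM over 9 genes in iFAXLKO and 9313 to 13979 in WT, and Ucp1 was at 4030.2 CPM or more in all 13 libraries. Of these 9 genes 7 had negative log2 fold changes and none passed the adjusted limit, with Elovl3, named after its values were seen, at -0.69 (SE 0.21, edgeR unadjusted p 0.00572, adjusted p 0.474) and 0 of 8 iFAXLKO libraries above its WT mean. All 9 fibroblast markers had positive log2 fold changes (summed 544 to 1196 CPM in iFAXLKO against 391 to 698 in WT), as had all 7 macrophage markers (92.7 to 178 against 75.7 to 113 CPM) and all 5 erythroid markers (386 to 685 against 285 to 709 CPM). Of the adipocyte markers, Adipoq, named after its values were seen, was higher in iFAXLKO (1120 ± 132 against 708 ± 92.7 CPM, SD, n = 8 and 5, log2 fold change 0.66, SE 0.11, edgeR adjusted p 0.0118), and the other 6 had log2 fold changes of -0.17 (Cidec) to -0.0045 (Fabp4), none past the limit. Per the study's methods the adiponectin-driven Cre transgene, present in iFAXLKO mice only, was built on a bacterial artificial chromosome. Whether that transgene adds to the Adipoq counts was not tested. The further marker lists were at 11942 to 15098 against 11984 to 16915 summed CPM for adipocyte, 51.4 to 122 against 21.9 to 130 for white adipocyte, 735 to 1153 against 614 to 899.9 for endothelial and 107 to 270.0 against 209 to 339 for Schwann cell genes. Log2 fold changes were positive for 3 of 3 white adipocyte, 6 of 7 endothelial and 4 of 5 Schwann cell genes, none past the limit. Of 20 skeletal muscle genes 1 was positive. The part of these lists in the results was not tested, apart from fits with the fibroblast or the skeletal muscle score as a covariate.

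Levels were compared between genes only as CPM per kilobase of exon, with the union of all annotated exons as the length. On that scale the iFAXLKO libraries had the most transcript from Aldoa (1241 ± 242, SD, n = 8), the aldolase that splits fructose bisphosphate, followed by Pdha1 (471 CPM per kb), a catalytic subunit of pyruvate dehydrogenase, Pkm (398), which makes pyruvate, and the lactate dehydrogenases Ldha and Ldhb (375 each). The lowest of the genes tested was Slc2a1, the transporter GLUT1, at 2.49 ± 0.473 CPM per kb.

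Within each enzyme family a single isozyme made up most of the transcript in all 13 libraries, except among the lactate dehydrogenases. Slc2a4 held 97.4 to 98.6% of the summed CPM per kb of Slc2a4 and Slc2a1 in iFAXLKO and 96.96 to 98.5% in WT. Hk2, the insulin-responsive hexokinase, held 71.2 to 90.3% in iFAXLKO and 70.8 to 81.4% in WT, over the housekeeping isozyme Hk1. Pfkl, the liver-type phosphofructokinase, held 70.2 to 82.2% and 76.3 to 83.0%, over the muscle type Pfkm at 10.9 to 23.2% and 9.93 to 17.3% and the platelet type Pfkp at 5.27 to 6.96% and 5.03 to 8.09%.

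Gys1, the glycogen synthase of muscle and most other tissues, held 66.9 to 81.6% in iFAXLKO and 63.9 to 73.0% in WT over Gys2, the synthase best known from liver. Ldha and Ldhb, whose subunits mix in the same tetramers, were near equal, with Ldha at 45.4 to 54.4% in iFAXLKO and 45.6 to 54.4% in WT, so that Ldha came first in 7 of 13 libraries. With the longest coding transcript as the length in place of the exon union, Ldha came first in 13 of 13 libraries at 55.7 to 64.4%, and Pfkp came before Pfkm in 8 of 13. The first isozyme of every other family stayed in its place in 13 of 13 libraries with either length. Among the pyruvate dehydrogenase kinases that isozyme was Pdk4, a gene outside the list, and Pdk2 held 10.5 to 18.1% in iFAXLKO and 10.8 to 17.7% in WT.

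**Figure D1:**
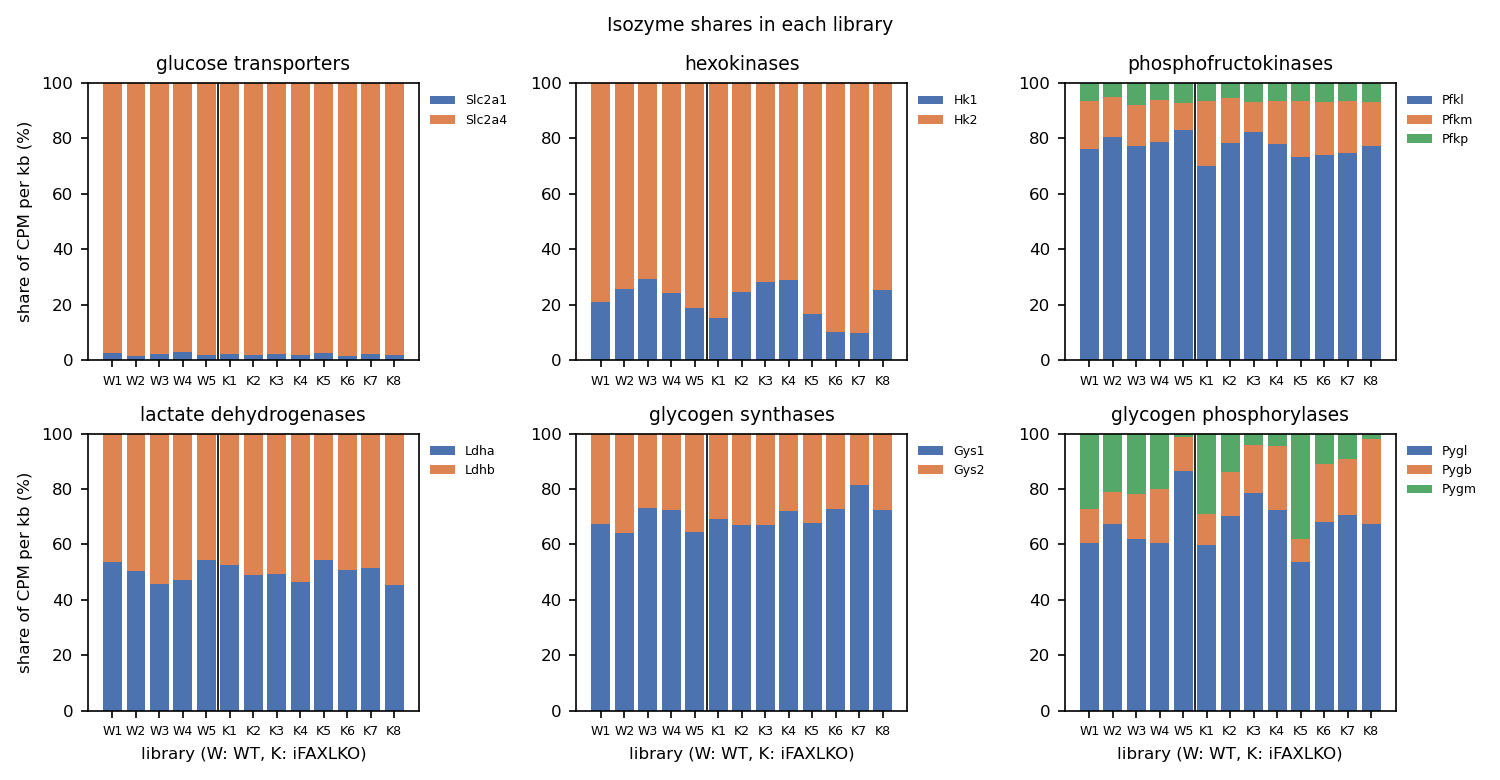
Bars give, for each of 13 libraries (W, WT; K, iFAXLKO), the share in % of each isozyme in the summed CPM per kilobase of its family, with the exon union as length. Slc2a4, Hk2, Pfkl, Gys1 and Pygl lead in every library, while Ldha and Ldhb are near equal and the share of Pygm, the muscle phosphorylase, varies most among the phosphorylases.

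Between the groups, none of the 36 genes tested passed an adjusted p of 0.05 in edgeR's quasi-likelihood test, against 17 of all 13360 genes tested, or 0.127%. DESeq2 also called none of them, with a lowest adjusted p of 0.209. At an unadjusted p under 0.05 there were 4 of the 36 in edgeR, all lower in iFAXLKO, where 3.54% of all genes tested were lower at that limit, and none higher, where 3.84% of all genes were. DESeq2 gave 5 at that limit and limma-voom 1, again with none past the adjusted limit. The shares of all genes at the unadjusted limit were not counted for DESeq2 and limma-voom. The CPM ranges of the 8 iFAXLKO and the 5 WT libraries overlapped for every one of the 36 genes, where 0.434% of all genes tested had ranges that did not overlap. Fewer cells of a type and less RNA per cell cannot be told apart in such bulk libraries.

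The log2 fold change was negative for 34 of 36 genes, Hk2 and Pygb being the exceptions, and the median was -0.11, while 7158 of all 13360 genes were negative with a median of -0.01. The values ran from -0.52 for Ugp2 to 0.15 for Pygb, the standard errors from 0.07 for Pdk2 to 0.25 for Pgd, and the adjusted p-values from 0.49 upward. With library sizes taken without the 10 most abundant and the mitochondrial genes, 28 of 36 were negative and the median was -0.05. The count rested in large part on WT replicate 2, without which 23 of 36 were negative and the median was -0.05. With limma-voom sample quality weights the count was 19 with a median of -0.01. The weight was 0.17 for WT replicate 2 and highest, at 2.1, for WT replicate 4. With the fibroblast score as a covariate 23 were negative, with a median of -0.05.

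**Figure D2:**
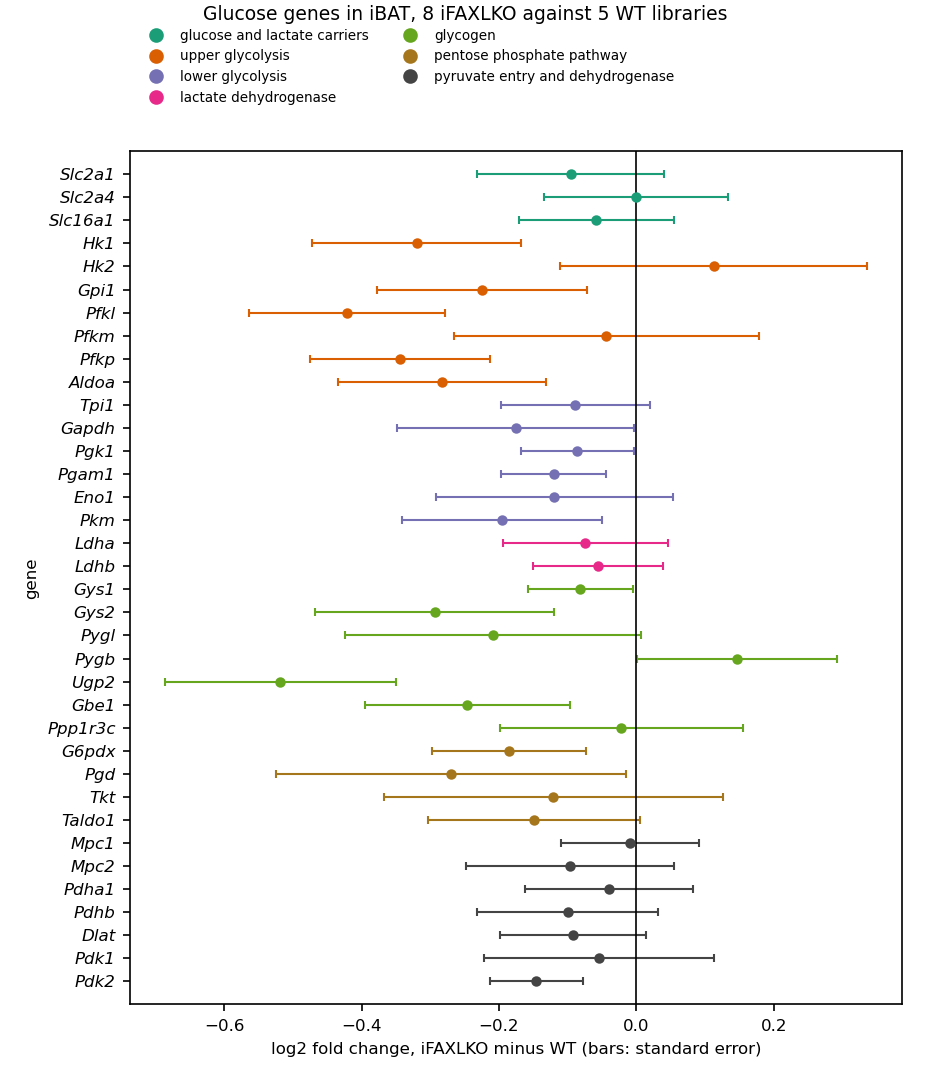
Points give the log2 fold change of each of 36 genes, 8 iFAXLKO minus 5 WT libraries, from edgeR, bars the standard error and colours the role in the pathway. All but Hk2 and Pygb lie at or left of 0, from -0.52 for Ugp2 to 0.15 for Pygb, and none passed an adjusted p of 0.05.

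By role, the medians of the log2 fold change were -0.28 over the 7 genes of upper glycolysis tested, -0.21 over the 7 glycogen genes, -0.17 over the 4 pentose phosphate genes, -0.12 over the 6 genes of lower glycolysis, -0.09 over the 7 pyruvate genes, -0.07 over the 2 lactate dehydrogenases and -0.06 over the 3 carriers. No role held a gene past the adjusted limit. Without WT replicate 2 these medians were, in the same order, -0.16, -0.14, -0.054, -0.014, -0.037, 0.041 and -0.040, so that the direction for the lactate dehydrogenases turned. The median of the carriers turned to 0.0026 without WT replicate 1. Without WT replicate 5 the medians of the glycogen and pyruvate genes were -0.085 and -0.022. With limma-voom sample weights the medians for the pentose phosphate (0.084), lower glycolysis (0.010), pyruvate (0.050) and lactate dehydrogenase genes (0.042) were positive. The genes at an unadjusted p under 0.05 were 2 of upper glycolysis, 1 of glycogen and 1 of pyruvate oxidation.

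The carriers differed little between the groups. Slc2a4 was at 456, 535, 342, 293 and 475 CPM in WT replicates 1 to 5 and at 346 to 496 CPM, median 408, in iFAXLKO. The group means were 420.1 ± 49.2 (SD, n = 8) and 420.1 ± 99.5 CPM (SD, n = 5), so that the spread within WT exceeded any difference. Slc2a1 was at 7.02 to 11.1 CPM in iFAXLKO and 8.08 to 11.8 CPM in WT (log2 fold change -0.10, SE 0.14, adjusted p 0.934). Slc16a1, the monocarboxylate carrier MCT1 that passes lactate, was at 287.1 to 435 CPM, median 309.8, against 311 to 375 CPM, with a log2 fold change of -0.06 (standard error 0.11, adjusted p 0.959).

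The hexokinases had log2 fold changes of opposite sign in the main comparison. Hk1 (chr10:62268855-62379908, GRCm38) was at 96.6, 106, 100.2, 75.1 and 97.6 CPM in WT and at 45.0 to 91.9 CPM, median 81.1, in iFAXLKO. All 8 iFAXLKO libraries lay below the WT mean, with 6 of 8 above the lowest WT library, and the log2 fold change was -0.32 (SE 0.15, edgeR adjusted p 0.685, exact permutation p 0.0746). Hk2 was at 252, 216, 169.5, 165 and 298 CPM in WT and at 150.4 to 354 CPM, median 229, in iFAXLKO, with 4 of 8 above the WT mean and a log2 fold change of 0.11 (standard error 0.22, adjusted p 0.96). With the replicate number as a block Hk2 was at -0.067. Within a lower and an upper range of library numbers, a cut that the labels do not mark, its log2 difference was -0.28 and 0.40. The direction of Hk2 was thus not stable. Gpi1, which isomerises glucose 6-phosphate, was at 549 to 852 CPM in iFAXLKO and 583 to 1032 CPM in WT (log2 fold change -0.22, SE 0.15, adjusted p 0.798).

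The phosphofructokinases Pfkl and Pfkp had the largest differences of upper glycolysis and Pfkm the smallest, none of them past the adjusted limit. Pfkl (chr10:77986947-78010083) was at 1432, 1695, 1040.1, 1031 and 1513 CPM in WT and at 779 to 1314 CPM, median 976, in iFAXLKO. The 8 iFAXLKO libraries were all below the WT mean, and WT replicates 3 and 4 lay within the iFAXLKO range. The log2 fold change was -0.42 (SE 0.14, edgeR unadjusted p 0.00974, adjusted p 0.507), and an exact permutation test over the 1287 assignments of 13 libraries gave p 0.0241 (two-sided). That test was run for each of the 36 genes only, 4 were under 0.05, and its p-values are not adjusted over the 36. The share of all genes tested under 0.05 in it was not counted, so the 4 have no background beside them.

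Pfkp (chr13:6579768-6648777) was at 242, 212, 218, 166 and 258 CPM in WT and at 136 to 236 CPM, median 169, in iFAXLKO, where 1 of 8 libraries exceeded the WT mean. Its log2 fold change was -0.34 (SE 0.13, edgeR unadjusted p 0.019, adjusted p 0.551, exact permutation p 0.0389). Pfkm was at 162, 153, 97.3, 99.2 and 90.6 CPM in WT and at 73.4 to 183 CPM, median 106, in iFAXLKO, a log2 fold change of -0.04 (standard error 0.22, adjusted p 0.987). Its high libraries were those rich in muscle transcripts. Aldoa (chr7:126795234-126800751) was at 2812 to 4837 CPM, median 3422, in iFAXLKO and 3351 to 5792 CPM in WT, with a log2 fold change of -0.28 (standard error 0.15, adjusted p 0.717).

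In lower glycolysis the 6 genes had log2 fold changes between -0.20 and -0.09. Pkm was at 2311, 3003, 1689, 1694 and 2696 CPM in WT and at 1674 to 2397 CPM, median 1946, in iFAXLKO (log2 fold change -0.20, SE 0.15, adjusted p 0.832). Gapdh, often used as a reference gene, was at 741 to 1501 CPM in WT and 717 to 1227 CPM in iFAXLKO (-0.18, SE 0.17, adjusted p 0.882), and Eno1, the general enolase, at 946 to 2038 CPM and 1051 to 1535 CPM (-0.12, SE 0.17, adjusted p 0.937). In these 3 genes the WT libraries spanned a wider range than the iFAXLKO libraries, and without WT replicate 2 the log2 fold changes were -0.075 for Pkm, -0.020 for Gapdh and 0.046 for Eno1.

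Pgam1 (-0.12, SE 0.08), Tpi1 (-0.09, SE 0.11) and Pgk1 (-0.09, SE 0.08) had adjusted p-values of 0.76 to 0.915. Ldha was at 1047 to 1468 CPM in iFAXLKO and 1064 to 1675 CPM in WT, and Ldhb at 532 to 634 CPM and 514 to 786 CPM, with log2 fold changes of -0.07 (SE 0.12) and -0.06 (SE 0.09), which were 0.031 and 0.050 without WT replicate 2.

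The glycogen genes held the largest difference of the 36. Ugp2 (chr11:21321138-21371201), which makes the UDP-glucose from which glycogen is built, was at 198, 182, 128, 105 and 170.0 CPM in WT and at 77.2 to 158 CPM, median 106, in iFAXLKO. Of the iFAXLKO libraries, replicate 5 exceeded the WT mean of 157 ± 38.9 CPM (SD, n = 5), and the iFAXLKO mean was 109 ± 24.1 CPM (SD, n = 8). The log2 fold change was -0.52 (SE 0.17, edgeR unadjusted p 0.00733, adjusted p 0.49, exact permutation p 0.0249), and it lay between -0.63 and -0.42 when each library was left out in turn.

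Gbe1, the branching enzyme, was at 155 to 226 CPM in iFAXLKO and 159 to 303.7 CPM in WT, with 0 of 8 iFAXLKO libraries above the WT mean (log2 fold change -0.25, SE 0.15, adjusted p 0.752). Gys2 was at 33.1 to 76.4 CPM against 52.6 to 91.3 CPM (-0.29, SE 0.17, adjusted p 0.745), and Gys1 at 238 to 309 CPM against 256 to 318 CPM (-0.08, SE 0.08, adjusted p 0.879). Of the phosphorylases, which release glucose from glycogen, Pygl was at 350.5 to 613 CPM against 338 to 812 CPM (-0.21, SE 0.22, adjusted p 0.894, and -0.043 without WT replicate 5), while Pygb was at 63.3 to 112 CPM against 61.1 to 96.2 CPM (0.15, SE 0.15, adjusted p 0.884). Ppp1r3c, which targets protein phosphatase 1 to glycogen, was at 81.0 to 189 CPM against 119 to 153 CPM, a log2 fold change of -0.02 (SE 0.18).

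The oxidative branch of the pentose phosphate pathway, with G6pdx and Pgd, yields NADPH, and Tkt and Taldo1 form the branch that returns sugars to glycolysis. Of all 36 genes, Tkt and Pgd had the largest SD of log2 CPM among WT libraries (0.73 and 0.71), against 0.27 for G6pdx and 0.41 for Taldo1. Tkt, transketolase, was at 2404, 3161, 1137, 1385 and 3624 CPM in WT and at 1607 to 2713 CPM, median 2218, in iFAXLKO, so that the iFAXLKO libraries all lay inside the WT range. Its log2 fold change was -0.12 (SE 0.25, adjusted p 0.962), and 0.092 without WT replicate 5. Pgd was at 488, 605, 232, 257 and 681 CPM in WT and at 289.5 to 516 CPM, median 340.2, in iFAXLKO (-0.27, SE 0.25, adjusted p 0.88, and -0.075 without WT replicate 5), with the same 3 WT libraries high. G6pdx (-0.19, SE 0.11) and Taldo1 (-0.15, SE 0.15) had adjusted p-values of 0.751 and 0.894.

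Of the genes for pyruvate entry and oxidation, Pdk2 (chr11:95026258-95041354), a kinase that holds pyruvate dehydrogenase inactive, was at 447, 475, 451, 432 and 428 CPM in WT and at 373 to 446 CPM, median 399.6, in iFAXLKO. Each of the 8 iFAXLKO libraries lay below the WT mean, and 2 of them, replicates 5 and 7, reached into the WT range. The difference was small, a log2 fold change of -0.15 (SE 0.07, edgeR unadjusted p 0.0474, adjusted p 0.664, exact permutation p 0.0101), in a gene with the narrowest spread of the 36 (pooled SD 0.08 on the log2 CPM scale). Pdk1 was at 78.6 to 126 CPM against 72.1 to 146 CPM (-0.05, SE 0.17).

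The mitochondrial pyruvate carrier subunits Mpc1 and Mpc2 had log2 fold changes of -0.01 (SE 0.10) and -0.10 (SE 0.15). The pyruvate dehydrogenase subunits Pdha1, Pdhb and Dlat had -0.04 (SE 0.12), -0.10 (SE 0.13) and -0.09 (SE 0.11), with adjusted p-values of 0.907 to 0.976.

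**Figure D3:**
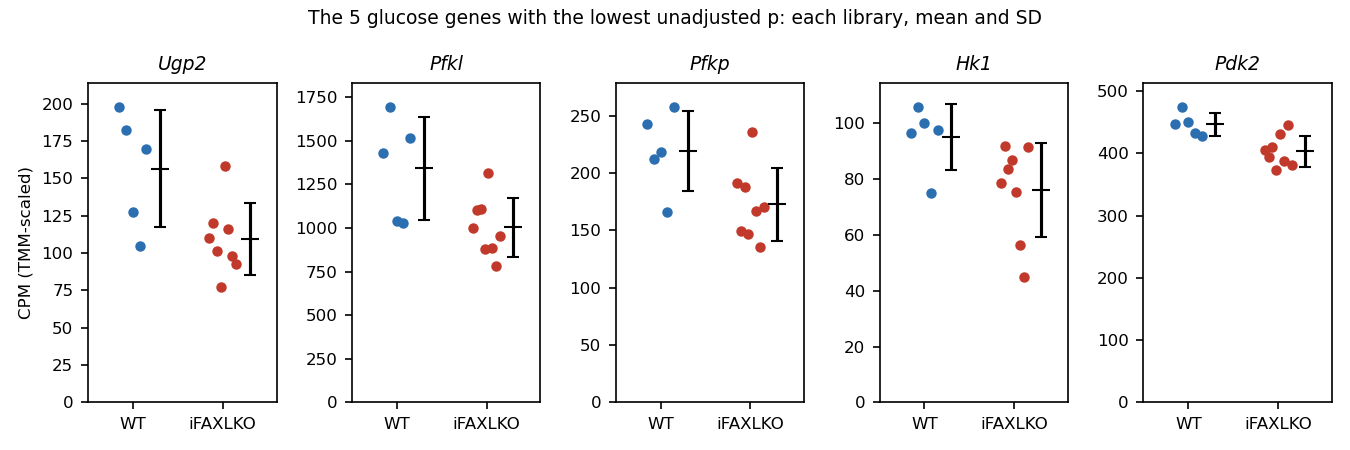
Points give the TMM-scaled CPM of each library for the 5 genes with the lowest unadjusted p, blue for 5 WT and red for 8 iFAXLKO, with mean and SD beside them in black. The groups overlap in each panel, and the iFAXLKO mean is lower by 0.15 (Pdk2) to 0.52 (Ugp2) on the log2 scale.

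The order of the libraries was alike in many of the genes. WT replicate 2 had the highest CPM of the 13 libraries for 18 of the 36 genes, or 50%, against 25.5% of all genes tested, and WT replicate 5 for 9, or 25%, against 7.68%. The lowest CPM lay most often in iFAXLKO replicate 4 (9 genes), WT replicate 3 and iFAXLKO replicate 7 (7 genes each). Of all genes tested, 6.03, 5.48 and 12.4% were lowest in these libraries. WT replicates 1, 2 and 5 were the 3 highest WT libraries for 27 of the 36 genes, with mean log2 CPM over the 36 genes of 8.68, 8.83 and 8.76 against 8.26 and 8.29, and the 8 iFAXLKO libraries between 8.23 and 8.64. The share of all genes with that order was not counted. These 3 are the WT libraries with the highest mean over the same 36 genes, so the count of 27 is no separate result. Among the 3 highest of all 13 libraries were WT replicates 1 to 5 for 16, 26, 2, 0 and 24 of the 36 genes. Over all genes tested the shares were 27.2, 36.5, 17.7, 14.6 and 25.9%.

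The SD of log2 CPM was larger in WT than in iFAXLKO for 26 of 36 genes, or 72.2%, against 61.8% of all genes tested, a share near that over all genes, and the median pooled SD was 0.28 against 0.21 over all genes. The libraries were also cut by the numbers in their labels into a lower range, which runs without gaps, and an upper range. The labels neither mark this cut nor say what the numbers stand for. The gap at the cut is no larger than the largest gap within the upper range, so the ranges cannot be taken as batches. Within the lower range (4 iFAXLKO, 2 WT) 36 of 36 genes were lower in iFAXLKO. Their median difference was -0.29, against -0.02 over all genes tested. Within the upper range (4 iFAXLKO, 3 WT) 16 of 36 were lower, with a median of 0.02, against 0.0015 over all genes tested. The share of all genes lower in each range was not counted. The 2 WT libraries of the lower range were replicates 1 and 2, both among the libraries with the highest mean log2 CPM over the 36 genes. With the range as a term in the model the median was -0.12 and none of the 36 passed the adjusted limit.

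**Figure D4:**
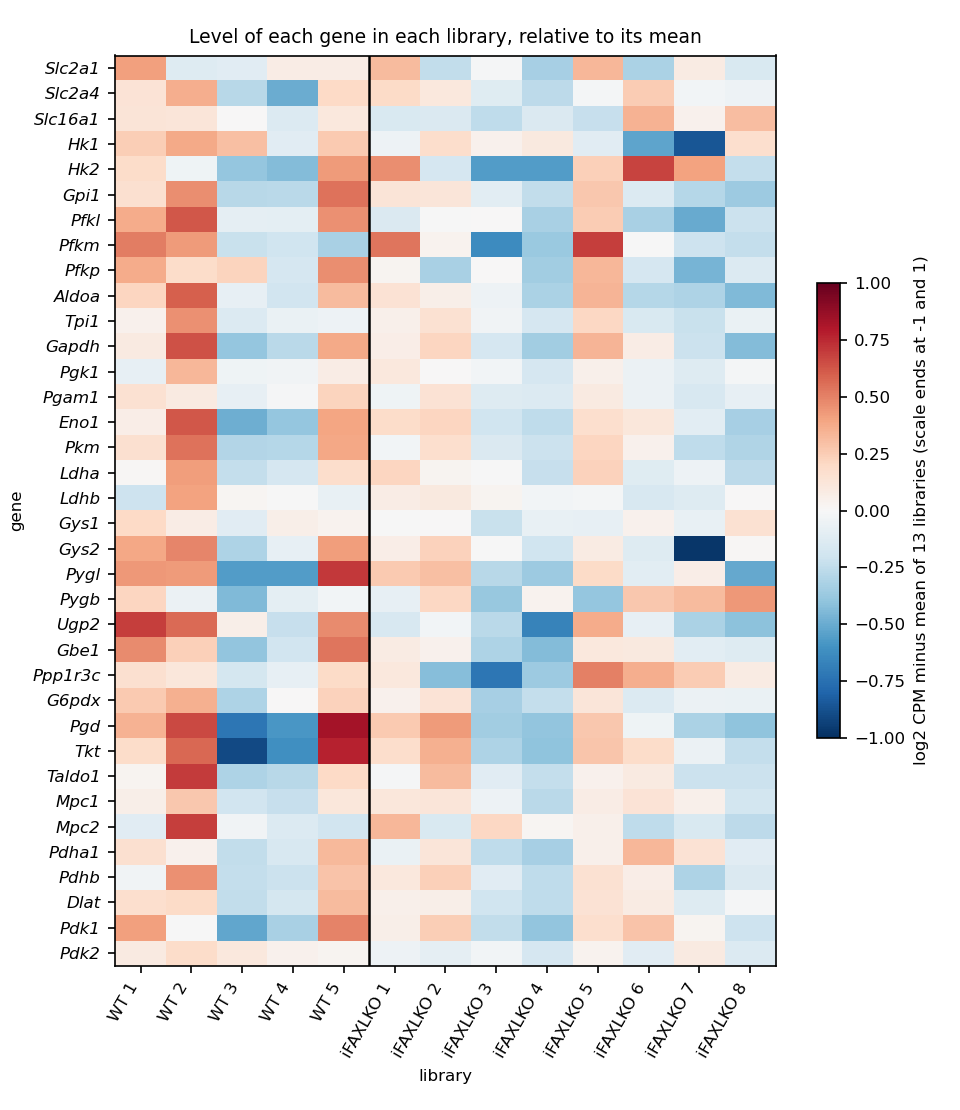
Colour gives the log2 CPM of each of 36 genes (rows) in each of 13 libraries (columns, WT left of the line) minus the gene's mean over the libraries. WT replicates 1, 2 and 5 are mostly red, WT replicates 3 and 4 and iFAXLKO replicate 4 are mostly blue, and iFAXLKO replicates 5 and 1 stand out in Pfkm.

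Skeletal muscle transcripts were examined as a source of each gene because muscle lies against this fat depot. Acta1, skeletal muscle actin, was at 889, 675, 294, 273 and 4.81 CPM in WT replicates 1 to 5 and at 803, 343, 39.3, 19.7, 1280.2, 194, 163 and 0.438 CPM in iFAXLKO replicates 1 to 8. Atp2a1, Myh4 and Ckm, the other muscle markers of highest mean CPM (not scaled by length), ran from 0.358 to 1041, 0.438 to 955 and 0.279 to 535 CPM, highest in iFAXLKO replicate 5 and lowest in iFAXLKO replicate 8. Summed over 20 muscle markers the iFAXLKO libraries held 58.0 to 6747 CPM and the WT libraries 98.2 to 4868 CPM.

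The muscle score, the mean log2 CPM of those 20 genes, was 4.36 ± 3.01 (SD, n = 8) in iFAXLKO and 5.16 ± 2.80 (SD, n = 5) in WT, a difference of -0.80 that an exact two-sided permutation test did not separate from 0 (p 0.642, with 0.000777 the smallest p the 1287 assignments allow). Without iFAXLKO replicate 8 the difference was 0.05, and without WT replicate 5 it was more negative. The score of WT replicate 5 was 0.28, against 5.66 to 7.26 in the other WT libraries. The SD within either group was larger than the difference between the groups, though in WT it rested largely on replicate 5.

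With group and muscle score in the model together, 206 of all genes tested, or 1.54%, were higher with the score at an adjusted p of 0.05 and 2, or 0.015%, lower, but none of the 36 genes was in either set. The slopes of the 36 genes ran from -0.03 to 0.10 per log2 unit of the score with a median of 0.02, against a slope of 1.12 for Pgam2, the mutase of muscle. Pfkm, the phosphofructokinase of muscle, had the highest slope, 0.10 (SE 0.03, adjusted p 0.127). Without iFAXLKO replicate 8 it was 0.15 (SE 0.03, adjusted p 0.0268) and was then called, and over the other 12 fits without 1 library the adjusted p of Pfkm was 0.102 to 0.518.

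In CPM, Pfkm was highest in the 4 libraries with the most Acta1, at 183 and 165 in iFAXLKO replicates 5 and 1 and at 162 and 153 in WT replicates 1 and 2. In the 2 libraries with the least Acta1, iFAXLKO replicate 8 and WT replicate 5, it was still at 96.5 and 90.6 CPM. WT replicate 5, with Acta1 at 4.81 CPM, had the highest CPM of all 13 libraries in Tkt (3624), Pgd (681), Pygl (812) and Gbe1 (303.7), and Pfkl there was at 1513 CPM. With the muscle score as a covariate, the group comparison called 16 of all genes tested, or 0.12%, and none of the 36, of which 31 were negative with a median of -0.10.

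A list of 54 further genes of the same pathways was examined beside the 36, and 47 of them passed the filter. None passed the adjusted limit between the groups in edgeR or DESeq2, with 2 lower and 1 higher at an unadjusted p under 0.05 and a median log2 fold change of -0.06. The highest were Slc16a7, the monocarboxylate carrier MCT2 (0.53, SE 0.32), Pdp1, a phosphatase that reactivates pyruvate dehydrogenase (0.26, SE 0.10), and Pfkfb4 (0.22, SE 0.13). The lowest were the fructose transporter Slc2a5 (-0.65, SE 0.73), the lactate exporter Slc16a3 (-0.51, SE 0.53) and Stbd1, which binds glycogen (-0.29, SE 0.09, adjusted p 0.462). Gyg, the glycogenin that primes glycogen, was the other gene lower at the unadjusted limit and is named for that after its values were seen (-0.25, SE 0.10, adjusted p 0.621).

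Against the muscle score 6 of the 47 were called, all higher with it. These were Pgam2 (slope 1.12, SE 0.04), Ppp1r3a (1.02, SE 0.05), Pygm (0.62, SE 0.05), Eno3 (0.51, SE 0.05), Slc16a3 (0.33, SE 0.06) and Phkg1 (0.25, SE 0.04). With the replicate number as a block 5 were called, as Slc16a3 (slope 0.32, SE 0.06) had an edgeR adjusted p of 0.0595. The first 4 are the muscle forms of phosphoglycerate mutase, of the glycogen-targeting subunit of protein phosphatase 1, of phosphorylase and of enolase. Their relatives among the 36 had slopes of 0.0046 (Pgam1), 0.02 (Ppp1r3c), 0.03 (Pygl), -0.03 (Pygb) and 0.03 (Eno1), and the difference in slope between relatives was not tested.

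Pgam2 was at 33.8, 43.9, 13.2, 12.4 and 0.0843 CPM in WT and at 0.0398 to 58.1 CPM in iFAXLKO, and in WT replicate 5 and iFAXLKO replicate 8 it lay under the 0.092 to 0.134 CPM that 3 counts are worth. Pgam1 was at 153 to 189 CPM in WT and 145 to 178 CPM in iFAXLKO. Per kilobase, Pgam2 therefore made up 0.105 to 37.6% of the pair in WT and 0.0613 to 44.3% in iFAXLKO, and Pygm 1.16 to 27.1% and 1.90 to 37.95% of the phosphorylases. The highest shares of both muscle forms lay in iFAXLKO replicate 5, the library with the most Acta1.

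**Figure D5:**
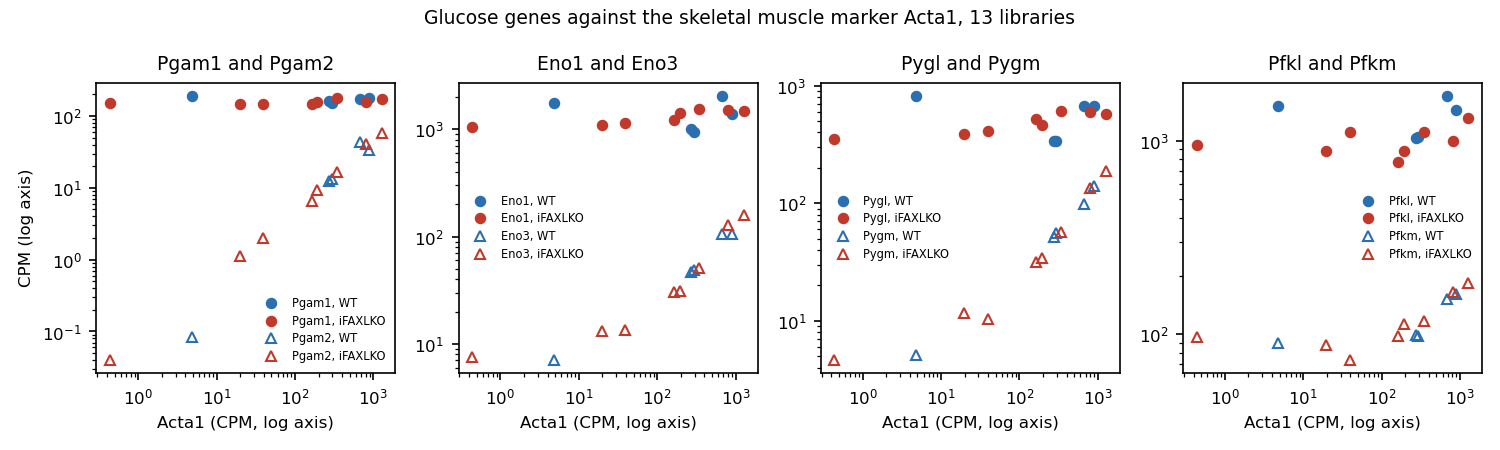
Each panel plots the CPM of a gene of the list (filled circles) and of its muscle relative (open triangles) against the CPM of Acta1, both on log axes, for 5 WT (blue) and 8 iFAXLKO (red) libraries. Pgam2, Eno3 and Pygm are higher in the libraries rich in Acta1. At the lowest Acta1, in iFAXLKO replicate 8 and WT replicate 5, Eno3 (7.60 and 7.04 CPM) and Pygm (4.62 and 5.10 CPM) changed little. Pgam1, Eno1, Pygl and Pfkl had slopes of 0.03 or less on the muscle score, and Pfkm is highest in the 4 libraries richest in Acta1.

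The RefSeq start sites of these relatives differ in sequence too, and the windows from 250 bases before to 50 bases after the start (GRCm38.p6) are shown for a pair that followed muscle content and the corresponding pair that did not, with the window of Ldha for the motif that recurred in the list. Capitals mark CAGCTG, an E-box form known from muscle-specific promoters, and ACGTG or its complement CACGT, the core of the sites bound by hypoxia-inducible and related bHLH factors, so that a CACGTG counts on each strand.
Pgam1 promoter, chr19:41911621-41911920, plus strand: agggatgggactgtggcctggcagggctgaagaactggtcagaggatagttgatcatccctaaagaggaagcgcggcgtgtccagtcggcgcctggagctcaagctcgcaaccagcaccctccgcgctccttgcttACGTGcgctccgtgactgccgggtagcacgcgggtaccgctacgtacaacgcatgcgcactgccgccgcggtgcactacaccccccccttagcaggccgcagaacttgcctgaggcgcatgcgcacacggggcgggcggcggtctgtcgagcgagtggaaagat
Pgam2 promoter, chr11:5803747-5804046, minus strand: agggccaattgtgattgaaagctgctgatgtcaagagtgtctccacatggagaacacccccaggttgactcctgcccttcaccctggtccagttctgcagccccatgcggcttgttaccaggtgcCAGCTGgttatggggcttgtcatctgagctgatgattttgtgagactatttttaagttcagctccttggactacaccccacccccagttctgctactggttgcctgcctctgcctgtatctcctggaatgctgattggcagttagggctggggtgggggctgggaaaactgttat
Pygl promoter, chr12:70227634-70227933, minus strand: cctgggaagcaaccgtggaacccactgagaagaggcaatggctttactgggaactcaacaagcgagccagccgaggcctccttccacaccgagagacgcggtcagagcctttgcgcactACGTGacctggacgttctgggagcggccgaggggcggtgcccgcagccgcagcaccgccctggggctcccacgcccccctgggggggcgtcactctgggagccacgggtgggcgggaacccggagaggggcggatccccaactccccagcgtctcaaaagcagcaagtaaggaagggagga
Pygm promoter, chr19:6384158-6384457, plus strand: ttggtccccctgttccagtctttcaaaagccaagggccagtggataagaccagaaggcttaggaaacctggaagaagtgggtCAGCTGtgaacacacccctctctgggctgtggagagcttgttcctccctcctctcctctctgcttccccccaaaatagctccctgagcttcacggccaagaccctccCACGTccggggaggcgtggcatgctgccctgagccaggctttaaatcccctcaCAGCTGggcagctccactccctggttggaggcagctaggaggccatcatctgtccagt
Ldha promoter, chr7:46845554-46845853, plus strand: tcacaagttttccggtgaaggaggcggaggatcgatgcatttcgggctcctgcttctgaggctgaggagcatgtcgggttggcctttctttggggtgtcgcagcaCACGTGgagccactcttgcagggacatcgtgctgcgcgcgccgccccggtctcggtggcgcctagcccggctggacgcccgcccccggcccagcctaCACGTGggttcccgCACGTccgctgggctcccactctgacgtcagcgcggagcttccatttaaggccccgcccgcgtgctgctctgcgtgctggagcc

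CAGCTG was found in 4 of the 6 genes called on the muscle score, in 8 of the 35 listed genes with a window in the table, or 22.9%, and in 18.3% of all genes, with 15.7% of the listed genes' windows and 16.3% of all 32851 windows. Slc2a4 and Gys2 had no window in the table. ACGTG was found in 19 of the 35 listed genes, or 54.3%, where 21.8% of all 27025 genes with a window held it, and in 21 of their 51 windows, or 41.2%, where 19.6% of all windows did. The motif contains a CG pair, and the median number of CG pairs per window was 21 in the listed genes against 7 in all. Matches are letters in a window and say nothing of binding.

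Some counts are uncertain because the strand setting and the counting tool are not given in the sources used here. Genes on the opposite strand overlap Pfkp (Pitrm1, at 35% of its CPM), G6pdx (Ikbkg, 21.6%), Gys1 (Ruvbl2, 19.4%) and Pfkm (Senp1, 16.8%), and Gm49759, on the same strand, overlaps Pkm (12.3%). Near-identical copies, with at least 95% identity over at least 300 bases, were annotated for 10 of the 37 genes, of which Gapdh had 77, Pgk1 4 and Eno1 and Ldha 3 each. Where such copies had counts of their own, in Gapdh and Eno1, they came to 0.576% and 0.0491% of the gene's CPM, and reads that fit both places may have been left out of either.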

How the data were processed

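Total RNA of iBAT from 8 iFAXLKO and 5 WT mice was sequenced, 1 library a mouse, and grouped by the labels. The authors deposited whole-number read counts per Ensembl gene, 1 table a sample, with no normalization. The submitters' processing notes name bcl2fastq 2.20, fastp 0.20.0, STAR 2.7.4a, DESeq2 and build GRCm38.p6, whereas the study's methods name Trim Galore and hisat2. The labels give poly-A RNA and the methods rRNA depletion. The counting tool and strand setting are not given in the sources used here.

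Genes over 1 CPM in at least 5 libraries were kept, TMM-scaled and tested with edgeR 4.0.16 (quasi-likelihood test, prior count 2, Benjamini-Hochberg limit 0.05 over all genes tested, R 4.3.3). The skeletal muscle score is the mean log2 CPM of 20 marker genes. Single values were tested by exact permutation. Alternatives used DESeq2 1.42.0, limma 3.58.1, RLE factors, other library sizes, no filter, covariates, a replicate block and leaving out each library. Near-identical copies were searched with blastn 2.17.0 (at least 95% identity over 300 bases), and tables and plots used pandas 2.3.3, numpy 2.4.6 and matplotlib 3.10.9. The fits were tested on simulated data. Identifiers were matched to GENCODE M21, and promoters came from RefSeq.

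The text names all 37 genes, the called and the 3 highest and 3 lowest further genes, Axl, Acta1 and the 3 other muscle markers of highest mean CPM. Elovl3, Adipoq, Gyg and the fatty acid synthesis genes are said to be named after their values were seen. These, and also Ucp1, Cidec, Fabp4, Pdk4 and the genes that overlap members, fall outside that rule. The members and lists were chosen with earlier results of these data known. Libraries held 22437277 to 32595083 counts, so that 3 counts were worth 0.092 to 0.134 CPM, which covers counting error only.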

Additional observations from a re-analysis of the deposited data

Results flagged for a closer look

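Among 74 groups of values examined for a library far from the rest (Dixon's test, which flags about 1 in 20 groups by chance), 4 held one. Tpi1 in WT replicate 2 was at 666.3 CPM, with the nearest WT library at 497.7 CPM, a gap of 0.743 of the group's range. Mpc2 in WT replicate 2 was at 813.4 CPM, with the nearest at 489.6 CPM and a gap of 0.867 of the range. Gys2 in iFAXLKO replicate 7 was at 33.1 CPM, with the nearest at 56.6 CPM and a gap of 0.542. The skeletal muscle score in WT replicate 5 was 0.2797, with the nearest WT library at 5.664 and a gap of 0.772.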

How the results depend on the processing

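None of the 36 genes was called between the groups under any alternative, while the number of all genes called was 17, against 67 with DESeq2, 23 with limma-voom, 7 with the replicate block and 8 with a fibroblast covariate. That covariate and the length of the longest coding transcript were added once the data had been seen. The count of negative log2 fold changes, 34, was 19 with limma-voom sample quality weights and 23 to 34 when each library was left out, with medians of -0.15 to -0.05. Between 0 and 1 of the 36 genes were called on the muscle score without 1 library. The further genes called on the score were 5 with the replicate block against 6. The muscle score difference ran from -2.02 without WT replicate 5 to 0.052 without iFAXLKO replicate 8. The causes were not tested. With limma-voom the sign turned for Eno1 (0.13), Gapdh (0.026), Ldha (0.051), Ldhb (0.032), Mpc1 (0.086), Mpc2 (0.098), Pdhb (0.050), Pdk1 (0.056), Pfkm (0.084), Pgd (0.095), Pygl (0.064), Slc2a4 (0.19), Taldo1 (0.074), Tkt (0.23) and Tpi1 (0.027). With the muscle covariate it turned for Mpc1 (0.0040), Pfkm (0.028) and Slc2a4 (0.0076), with DESeq2 for Slc2a4 (0.0017) and with RLE factors for Slc2a4 (0.0017). When the 10 most abundant genes and the mitochondrial ones were left out of the library sizes it turned for Ldhb (0.00042), Mpc1 (0.047), Pdha1 (0.012), Pfkm (0.0091), Ppp1r3c (0.028) and Slc2a4 (0.061).

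The replicate block gave 0 called, 31 negative and a median of -0.069, with turned signs for Hk2 (-0.067), Ldha (0.0068), Ldhb (0.0029), Mpc2 (0.054), Pfkm (0.0079), Pygb (-0.040) and Tkt (0.016). Same-numbered libraries correlated at 0.392, 0.422, 0.188, 0.181 and -0.614, and not every library matched its own number best, so the numbers were not taken as pairs. Without WT replicate 2 and without WT replicate 5 the log2 fold change of 20 of the 36 genes each moved by over 1.5 times or turned, and without any other library that of 4 to 17. Leaving out each library in turn gave ranges that crossed 0 for Eno1 (-0.22 to 0.045), Ldha (-0.13 to 0.031), Ldhb (-0.11 to 0.050), Mpc1 (-0.064 to 0.062), Mpc2 (-0.16 to 0.11), Pdha1 (-0.093 to 0.041), Pdhb (-0.16 to 0.012), Pdk1 (-0.15 to 0.077), Pfkm (-0.17 to 0.088), Ppp1r3c (-0.10 to 0.060), Slc2a1 (-0.15 to 0.0026), Slc2a4 (-0.10 to 0.10), Taldo1 (-0.23 to 0.043), Tkt (-0.28 to 0.092) and Tpi1 (-0.12 to 0.030).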

Other observations

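Genes of fatty acid synthesis, named after their values were seen and not tested, had WT replicates 1, 2 and 5 as the 3 highest WT libraries in 6 of 6 genes, as had 27 of the 36 glucose genes, though the order among those 3 differed between genes. The share of all genes with those 3 highest was not counted. Fasn, fatty acid synthase, was at 15660, 10910, 3449, 5347 and 18800 CPM in WT replicates 1 to 5 and at 5442 to 12350 CPM, median 9840, in iFAXLKO. Acly, which makes cytosolic acetyl-CoA from citrate, was at 2239, 1615, 288.1, 457 and 3058 CPM in WT and at 465 to 1655 CPM, median 1275, in iFAXLKO. Acaca, acetyl-CoA carboxylase, was at 1160, 1061, 385, 523 and 1539 CPM in WT and at 536.5 to 1030 CPM in iFAXLKO. Elovl6, Me1 and Scd1 were at 417 to 756, 163 to 449 and 2461 to 13960 CPM in WT and at 452.5 to 694, 187 to 446 and 3936 to 15330 CPM in iFAXLKO.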
